A study of Homo sapiens with 3 samples.

Results

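The squamous lineage transcription factors described here are 10 genes, TP63, SOX2, PITX1, KLF4, KLF5, GRHL2, GRHL3, TFAP2A, TFAP2C and OVOL1, taken by gene symbol from 29402 genes on the array. Each is read by 1 probe set, and all 10 passed the filter on low values. They were measured in SAS, an oral cancer line derived from a human tongue squamous carcinoma, on 3 Affymetrix Human Gene 2.0 ST arrays. Of these, 2 arrays carry RNA of cells labelled with ARID1A siRNA, array 108 (replicate 1) and array 109 (replicate 2), and 1 carries RNA of cells labelled mock, titled SAS NC. The siRNAs were delivered with Lipofectamine RNAiMAX, and the labels do not say what the mock cells received. Separate cultures are not named in the labels, and p-values therefore measure only the spread between these samples, which may be technical. All groups come from 1 established cell line.

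Squamous epithelia are kept by a small set of DNA-binding proteins. The factor p63 maintains the basal layer, and AP-2, Kruppel-like and Grainyhead-like factors act with it on genes of keratins, adhesion and the skin barrier. KLF4, GRHL3 and OVOL1 are known for terminal differentiation, while SOX2 and PITX1 are known for the identity of oral and oesophageal squamous cells. ARID1A, the target of the siRNA, is the DNA-binding subunit of a SWI/SNF complex, which remodels the chromatin that such factors bind. The series title names the comparison, ARID1A knockdown against mock cells.

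Among the factors, 8 of 10 were above the authors' negative control mean on all 3 arrays, and SOX2 and GRHL3 were below it on all 3. Of all 29402 genes, 13283 were above it on all 3 arrays and 14209 on none. KLF4 was the member furthest from the mock array, 1.26-fold on array 108 and 1.92-fold on array 109. The other 7 members above background lay between 0.849-fold and 1.12-fold of the mock array on both siRNA arrays. For SOX2, TFAP2A and OVOL1 the 3 arrays gave identical values. No member passed limma's test (adjusted p = 1 for each, adjusted over 20582 genes). In these bulk samples, fewer cells of a type and less RNA per cell cannot be told apart.

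The siRNA target ARID1A read log2 5.72 on array 108, 5.32 on array 109 and 6.79 on the mock array, a mean difference of -1.27 ± 0.28 (SD, n = 2; limma unadjusted p = 0.0014, adjusted p = 1). Median log2 values over all probe sets were 3.97 to 3.99, and the negative control mean was at log2 4.36, 4.65 and 4.43 on array 108, array 109 and the mock array. Over all genes tested, limma called 0 at a false discovery rate of 5%, a share of 0%, while an unadjusted p under 0.05 was reached by 2.2% (228 higher, 225 lower). An exact permutation of 2 arrays against 1 has 3 labellings and cannot go below p = 0.333. Precision is limited by the small number of arrays, with a single mock array. Of 8 squamous markers, 4 were above the negative control mean on all arrays (KRT5, TP63, CDH1 and DSG3), while PKP1 was below it on all. The mean log2 level of the 8 was 6.33 on array 108, 5.91 on array 109 and 6.01 for mock, and its part in the results below was not tested. Of 6 markers of simple or glandular epithelium, 5 were also above it on all arrays (KRT7, KRT8, KRT18, KRT19 and MUC1), and KRT20 was below it on all. Markers of other cells were mostly below it on every array, in 6 of 8 for fibroblasts, 5 of 7 for leukocytes, 3 of 4 measured for endothelium and 4 of 4 for melanocytes. Of all 29402 genes, 13283 were above it on all arrays and 14209 on none.

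The promoter windows of 3 members are shown because they hold the member furthest from the mock array, its paralog KLF5 and the lineage regulator TP63. Each window covers 250 bases before to 50 bases after a RefSeq start site and comes from RefSeq, build GRCh38.p14. The windows lie at chr9:107489720-107490019 on the minus strand for KLF4, at chr13:73058755-73059054 on the plus strand for KLF5, and at chr3:189631139-189631438 on the plus strand for TP63. KLF5 has a further window, at chr13:73054726-73055025, whose letters are not shown. Capitals mark GC boxes (GGGCGG, bound by SP and KLF proteins) and TATA boxes (TATAAA), on either strand.
KLF4: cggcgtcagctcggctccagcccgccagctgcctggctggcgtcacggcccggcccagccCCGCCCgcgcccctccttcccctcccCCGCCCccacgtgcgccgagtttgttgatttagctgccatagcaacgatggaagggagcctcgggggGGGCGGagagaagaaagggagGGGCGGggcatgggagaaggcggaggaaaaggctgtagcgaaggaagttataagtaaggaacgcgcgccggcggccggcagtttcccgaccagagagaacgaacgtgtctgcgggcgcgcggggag
KLF5: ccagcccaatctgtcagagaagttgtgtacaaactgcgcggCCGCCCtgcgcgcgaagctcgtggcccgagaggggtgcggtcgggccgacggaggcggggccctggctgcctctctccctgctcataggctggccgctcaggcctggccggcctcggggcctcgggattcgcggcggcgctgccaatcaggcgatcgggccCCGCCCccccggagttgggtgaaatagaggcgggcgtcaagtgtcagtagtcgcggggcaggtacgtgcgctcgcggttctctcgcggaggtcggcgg
TP63: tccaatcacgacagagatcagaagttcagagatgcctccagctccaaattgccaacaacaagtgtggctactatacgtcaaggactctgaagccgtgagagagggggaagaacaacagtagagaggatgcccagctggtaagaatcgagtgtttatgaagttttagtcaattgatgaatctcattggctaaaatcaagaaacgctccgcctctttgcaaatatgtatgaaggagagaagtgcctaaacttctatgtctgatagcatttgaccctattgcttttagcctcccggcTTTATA
The KLF4 window holds 4 GC boxes, the KLF5 window 2 and the TP63 window 0, while a TATA box letter match was found in the TP63 window only of these 3. That match is on the opposite strand and ends the window, so it lies after the start site and not before it. GC content was 69% for KLF4, 71.3% for KLF5 and 43.7% for TP63, against a median of 58.7% over 35116 RefSeq windows of the same length. CpG dinucleotides numbered 33, 37 and 7, against a median of 14. The further KLF5 window was unlike the one shown, with 0 GC boxes, 1 TATA box match, a GC content of 40.7% and 4 CpG. The window of TP63 belongs to the start of its long, transactivating form. Squamous cells are known to use mainly a start further inside the gene, which gives the form without that domain. Which forms the probe set reads was not determined here.

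Windows were found for 7 of the 10 members, 10 windows in all, and not for GRHL2, TFAP2C and OVOL1. A GC box was found in 5 of the 10 windows, against 45% of all windows. The letters CACCC, the core bound by Kruppel-like factors, were found in 7 of 10 against 59.9%. The AP-2 letters GCCNNNGGC were found in 3 of 10 against 23.2%, in KLF4, SOX2 and GRHL3. TATAAA was found in 3 of 10 against 11.5%, and the SOX letters CATTGT in 3 of 10 against 10.8%. The Grainyhead letters AACCNGTT, the AP-1 letters TGANTCA and the letters TGACGTCA of the cAMP response element were found in 0 of 10, against 1.73%, 7.71% and 1.85% of all windows. Both strands were searched, and a GC box and a CACCC match may overlap. These letter matches describe the windows and do not show binding.

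**Figure D1:**
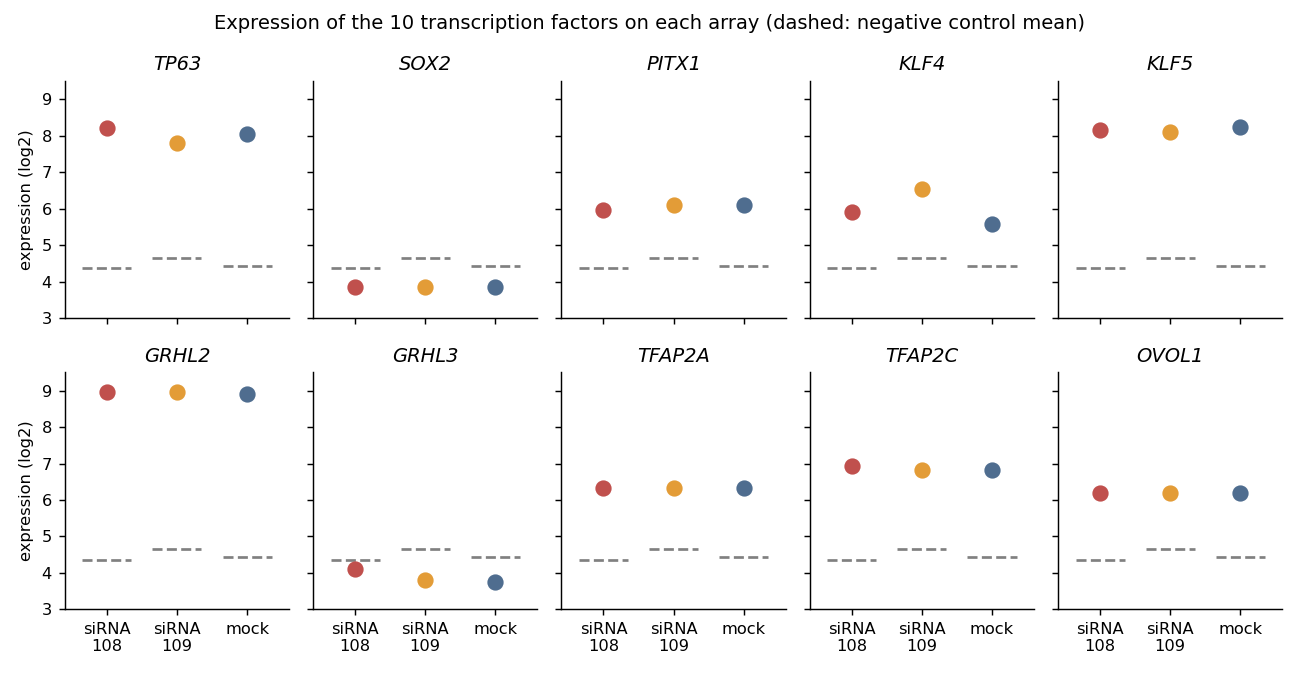
Log2 expression (y axis) of each of the 10 factors on siRNA array 108, siRNA array 109 and the mock array, 1 point per array, with the authors' negative control mean of that array as a dashed line. SOX2 and GRHL3 lie under the line on all arrays, and KLF4 lies at 5.59 on the mock array and at 5.92 and 6.53 on the siRNA arrays. Levels are not comparable between genes, since each probe set has its own response.

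TP63 encodes p63, the master regulator of the squamous lineage. Its log2 values were 8.21 on array 108, 7.81 on array 109 and 8.05 on the mock array. The mock array lay between the siRNA arrays, which were 1.12-fold and 0.849-fold of it. The mean log2 difference was -0.04 ± 0.28 (SD, n = 2), with a limma standard error of 0.24 and a 95% interval of -0.63 to 0.56. The interval reaches from 0.645-fold to 1.47-fold, so a change within that range could not be told from none. It is not a limit of detection, since limma called 0 of all genes tested. Of all genes tested, 12.7% had siRNA arrays on opposite sides of the mock array.

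SOX2 encodes an HMG-box factor, and its locus lies on chromosome 3, as does TP63. Its log2 value was 3.84 on each of the 3 arrays, below the negative control mean of every array. SOX2-OT, the non-coding gene that overlaps SOX2, was at 3.39 on each array, also below it. No level of SOX2 above background was therefore measured in any group, and no fold is given. SOX2-OT, like OVOL1-AS1 and TFAP2A-AS1 further on, falls outside the rule for named genes and was added after its value was seen.

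PITX1, a homeobox factor on chromosome 5, was at log2 5.97 on array 108 and at 6.10 on both array 109 and the mock array. Array 109 and the mock array were exactly equal, and array 108 was 0.919-fold of them. The mean log2 difference was -0.06 ± 0.09 (SD, n = 2), and the limma interval ran from -0.51 to 0.39.

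KLF4, a zinc finger factor on chromosome 9 known for epidermal differentiation and barrier formation, was at log2 5.92 on array 108, 6.53 on array 109 and 5.59 on the mock array. On the linear scale the values were 60.5, 92.2 and 48.1, all above the negative control mean. Both siRNA arrays lay above the mock array, and array 109 lay well above array 108. KLF4 differed from the mock array by 0.33 on array 108 and by 0.94 on array 109, with a mean of 0.63 ± 0.43 (SD, n = 2). It did not pass limma's test (unadjusted p = 0.064, adjusted p = 1), and the interval of -0.05 to 1.32 includes 0. The gap between the siRNA arrays was 0.61, about as large as the mean difference. Array 109 was at least 1.5-fold above the mock array in 1.15% of all genes tested and array 108 in 0.768%, and KLF4 met this on array 109 only. Array 109 was at least 1.5-fold above array 108 in 2.19% of genes, KLF4 among them at 1.52-fold. In the authors' deposited table the ratio of KLF4 was 1.26 on array 108 and 1.92 on array 109, with no flag on either.

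KLF5, the relative of KLF4 on chromosome 13 that is known for proliferating basal cells, was at log2 8.17 on array 108, 8.11 on array 109 and 8.24 on the mock array. Both siRNA arrays lay just below the mock array, at 0.949-fold and 0.91-fold. The mean log2 difference was -0.11 ± 0.04 (SD, n = 2). This was larger than the spread between the siRNA arrays but small beside the limma interval of -0.59 to 0.38 (adjusted p = 1).

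GRHL2, a Grainyhead-like factor that keeps epithelial adhesion genes active, was at log2 8.97 on both siRNA arrays and at 8.91 on the mock array. The siRNA arrays were exactly equal and 1.04-fold of the mock array, with a limma interval of -0.40 to 0.52. GRHL3, its relative known for the skin barrier and wound closure, was at 4.10 on array 108, 3.81 on array 109 and 3.76 on the mock array. These 3 values all lay below the negative control mean, so the order of the arrays is an order within the background and no fold is given.

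OVOL1, a zinc finger repressor known for the switch of keratinocytes out of proliferation, was at log2 6.19 on each of the 3 arrays. Its antisense neighbour OVOL1-AS1 was at 3.72 on each array, below the negative control mean. The limma interval of OVOL1 was -0.44 to 0.44 around a difference of 0.

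TFAP2A, the AP-2 alpha gene on chromosome 6, was at log2 6.34 on each array, and TFAP2A-AS1 at 4.17 on each array, below the negative control mean. TFAP2C, the AP-2 gamma gene on chromosome 20, was at 6.92 on array 108, while array 109 and the mock array both gave 6.82. Array 108 was 1.08-fold of the exactly equal other arrays, and the mean log2 difference was 0.05 ± 0.07 (SD, n = 2). AP-2 factors are known to act early in the surface ectoderm.

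**Figure D2:**
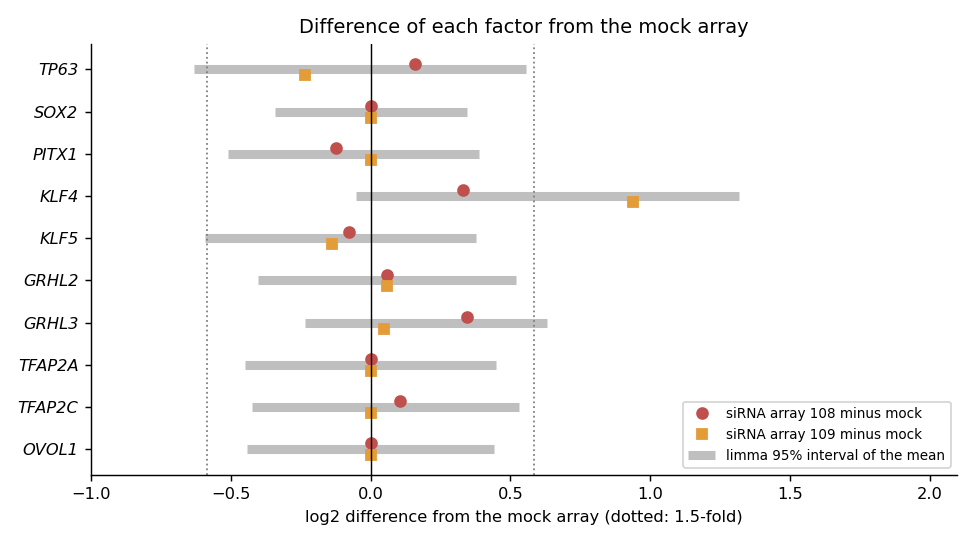
Log2 difference from the mock array (x axis) of each factor (y axis) on siRNA array 108 (circles) and array 109 (squares), with the limma 95% interval of the mean as a grey bar and 1.5-fold as dotted lines. KLF4 on array 109, at 0.94, is the only point past 1.5-fold, and every interval includes 0.

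Over the 10 members, 3 were higher than the mock array on both siRNA arrays (KLF4, GRHL2 and GRHL3), against 13.1% of all 20582 genes tested, and 1 was lower on both (KLF5), against 16.2%. The value of GRHL3 lay below the negative control mean, so 2 of the 3 were above background. Identical values on all 3 arrays were found for 3 of 10, against 38% of all genes. A difference of at least 1.5-fold on both siRNA arrays was found for 0 members in either direction, against 0.34% of genes higher and 0.272% lower. The siRNA arrays differed from each other by at least 1.5-fold in 1 member, KLF4, against 3.7% of genes in either direction. The median of the mean differences was 0 for the members and 0 for all genes tested. With arrays centred on their medians 5 members were lower on both arrays, since this moved the 3 identical members to -0.02 and PITX1, tied with the mock array on array 109, below it on both. Every gene with identical values moved in the same way, and the share of all genes lower after centring was not counted.

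**Figure D3:**
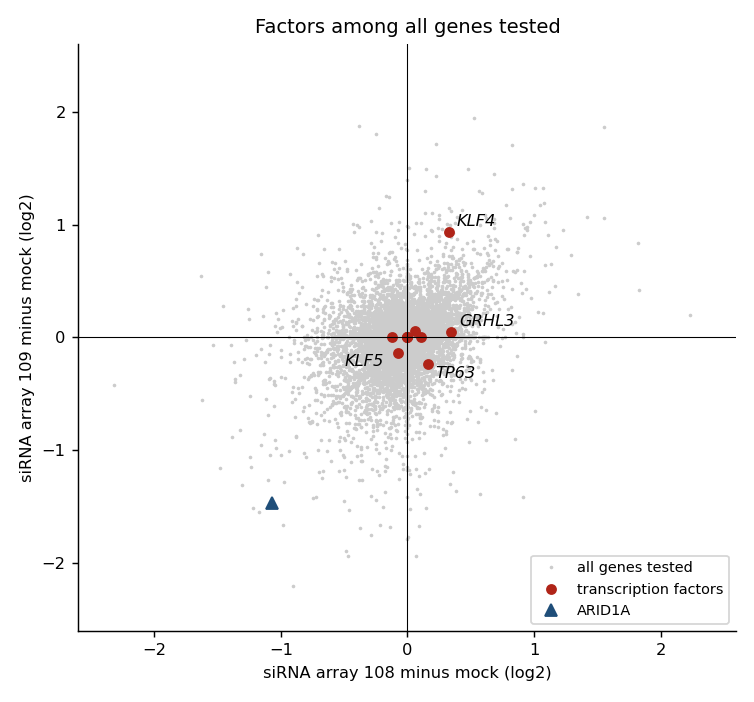
Log2 difference from the mock array on siRNA array 108 (x axis) and array 109 (y axis) for all genes tested (grey), the 10 factors (red) and ARID1A (blue triangle). Most factors lie near 0 on both axes, KLF4 lies at 0.33 and 0.94, and the axes share the mock array.

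The paralogs of the members were measured in the same way, and their lists were drawn up with earlier results of these data known. Of 17 paralogs, 15 passed the filter, with a median difference of 0.03. On both siRNA arrays 5 were higher than the mock array and 3 lower, against 13.1% and 16.2% of all genes tested. KLF6, a Kruppel-like factor induced by growth signals, was at log2 8.10 on both siRNA arrays and 7.57 on the mock array (limma unadjusted p = 0.0369, adjusted p = 1). GRHL1 was at log2 4.75 on array 108, 3.63 on array 109 and 3.92 for mock, and reached the negative control mean on array 108 only, so no difference is given. The quantile-normalized values gave 5 higher and 5 lower, and values centred on the array medians gave 5 and 7.

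The whole Kruppel-like and SOX families were added after their values were seen and are given as a description. Of 17 Kruppel-like genes, 12 were above the negative control mean on all arrays, 5 were higher than the mock array on both siRNA arrays (KLF3, KLF4, KLF6, KLF7 and KLF11) and 2 were lower (KLF5 and KLF12). The same counts were 9 and 6 after quantile normalization and 5 and 9 after centring on the medians. KLF12, a transcriptional repressor, was at log2 7.40 on array 108, 6.86 on array 109 and 7.91 on the mock array. Its mean difference was -0.78 (limma unadjusted p = 0.0299). A limma unadjusted p under 0.05 was reached by 2.2% of all genes tested, and 0 were called after adjustment. KLF10, a TGF-beta induced gene, was at 8.49 on array 108, 9.28 on array 109 and 8.50 on the mock array, so that only array 109 stood apart. Of 19 SOX genes, 10 were above the negative control mean on all arrays, 3 were higher on both siRNA arrays (SOX1, SOX4 and SOX9), 1 was lower (SOX15), and 12 had 1 value on all arrays. SOX1 was at 4.52 on both siRNA arrays and 4.47 on the mock array, and fell below the negative control mean on array 109. Over all genes tested, 13.1% were higher on both siRNA arrays, 16.2% were lower and 38% had identical values. Of all 29402 genes, 13283 were above the negative control mean on all arrays. After centring on the medians the SOX counts were 3 and 14, and after quantile normalization 5 and 9.

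Of 24 other epidermal and squamous transcription factors, 23 passed the filter, with a median difference of 0.01. On both siRNA arrays 5 were higher than the mock array and 4 lower, against 13.1% and 16.2% of all genes tested. SOX9, a factor of epithelial progenitors, was at log2 9.40 on array 108, 10.12 on array 109 and 9.15 on the mock array. PRDM1, the BLIMP1 repressor, differed by 0.25 and 0.86, with the larger value on array 109 as for KLF4 and SOX9. DLX3, a homeobox factor of epidermal differentiation, differed by -0.24 and -0.74. The counts were 7 and 8 after quantile normalization and 5 and 10 after centring on the medians, which moved the list median to -0.001. No gene of this or the other lists reached limma's threshold.

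Of 25 genes known as linked to p63, all passed the filter. Of these, 21 were above the negative control mean on all arrays, against 13283 of all 29402 genes. On both siRNA arrays 9 were higher than the mock array and 5 lower, against 13.1% and 16.2% of all genes tested. The median difference of the 25 was 0, as for all genes. KRT5, the basal keratin and a known p63 target, was at log2 6.75 on array 108, 5.77 on array 109 and 6.66 on the mock array. KRT5 and TP63 were both lowest on array 109. DLX3, already named, belongs to this list too. Centring on the medians gave 9 higher and 12 lower, and quantile normalization 14 and 5.

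Of 16 genes linked to Grainyhead-like factors, all passed the filter, with a median difference of 0.15 on array 108 and 0 on array 109. On both siRNA arrays 6 were higher than the mock array and 1 was lower, while 5 lay on opposite sides. The shares of all genes tested were 13.1%, 16.2% and 12.7%. PRSS8, the membrane protease prostasin, differed by 0.88 and 0.18, and NECTIN4, an adhesion molecule, by 0.58 and 0.19. TJP1, the tight junction protein ZO-1, was at log2 8.67 on array 108, 7.21 on array 109 and 8.96 on the mock array, so that array 109 stood apart. GRHL2 itself was the same on both siRNA arrays. Centring on the medians gave 6 higher and 5 lower, and quantile normalization 7 and 1.

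Of 21 genes of squamous differentiation, 12 did not reach the negative control mean on any array, against 14209 of all 29402 genes. The filter was passed by 16. Among these 16, 0 were higher than the mock array on both siRNA arrays, 2 were lower and 10 were identical on all arrays. Over all genes tested these shares were 13.1%, 16.2% and 38%. After centring on the medians 13 were lower on both, and after quantile normalization 9. Centring moved every gene with identical values below the mock array, with a median of -0.0151 over all genes tested on each siRNA array. SPRR1B, a cornified envelope protein, was at log2 4.33, 3.25 and 2.63 on array 108, array 109 and the mock array. It lay below the negative control mean throughout and did not pass the filter, so no fold is given. SCEL, the sciellin gene, lies outside the rule and was picked after its values were seen. It was at 6.92 on array 108, 6.22 on array 109 and 7.17 on the mock array.

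Of 9 mesenchymal transcription factors, whose programme GRHL2 and OVOL proteins are known to oppose, 7 passed the filter, with a median difference of -0.06. On both siRNA arrays 1 was higher than the mock array and 2 were lower, against 13.1% and 16.2% of all genes tested. ZEB1 and ZEB2, outside the rule and looked up afterwards, did not reach the negative control mean on any array. FOXC2, a forkhead factor, was below it on the mock array only. Its siRNA arrays, at log2 4.61 and 4.74, lay only 0.25 and 0.08 above their own negative control means. With the mock array taken at its negative control mean, the mean of the siRNA arrays was 1.18-fold of that level. This is not a lower bound, since negative control means differed between arrays and the limma interval for the measured values started at 1.08-fold. For the measured values, limma gave unadjusted p = 0.0189 and adjusted p = 1. SNAI2, the Slug gene, differed by -0.22 on each siRNA array, while TWIST1, the other factor counted as lower, read 4.29 on both siRNA arrays and 4.39 for mock, all below the negative control mean. Quantile normalization gave 3 higher and 3 lower, and centring on the medians 1 and 4.

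Of 18 transcription factors of other lineages, 10 did not reach the negative control mean on any array, against 14209 of all 29402 genes. The filter was passed by 16, with a median of 0. On both siRNA arrays 3 were higher than the mock array and 2 lower, against 13.1% and 16.2% of all genes tested. FOXA2, a forkhead factor of endoderm, differed by 0.30 and 0.80, and PAX8 by 0 and 0.39. Centring on the medians gave 3 higher and 11 lower, and quantile normalization 4 and 8.

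**Figure D4:**
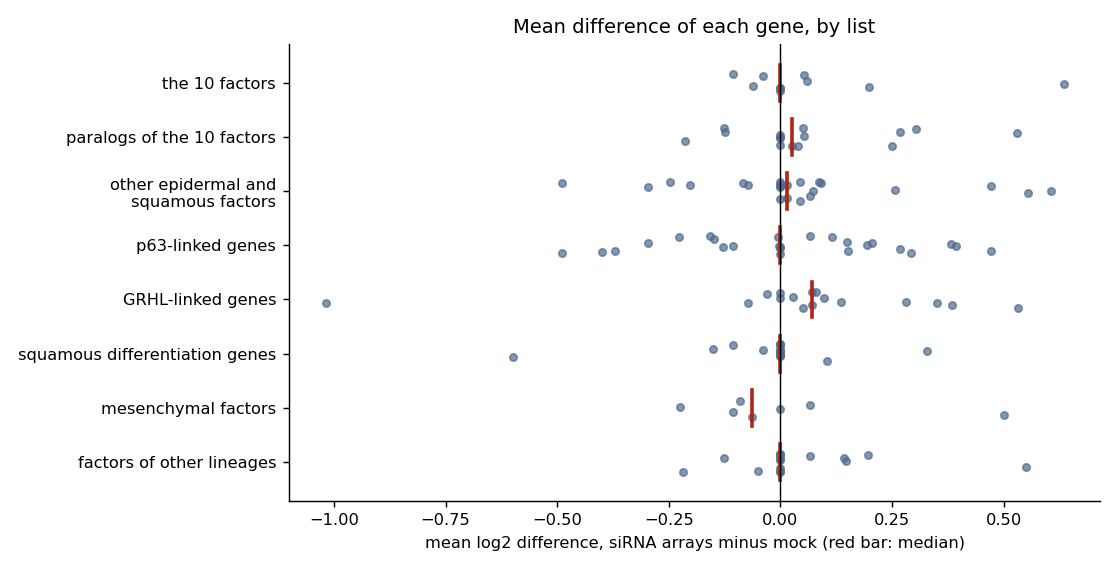
Mean log2 difference of the siRNA arrays from the mock array (x axis) for each gene that passed the filter, by list (y axis), 1 point per gene with the list median as a red bar. List medians lie between -0.06 and 0.07, and KLF4 is the rightmost of the 10 factors, at 0.63.

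Genes nearest in pattern were sought among 13283 genes above the negative control mean on all arrays, for the 3 members with the widest range, by Euclidean distance of the 3 log2 values after each gene was centred on its own mean. Nearest to KLF4 were ZNF267 at a distance of 0.0302, PXDN at 0.0316 and SLFN5 at 0.0439. PXDN, a peroxidase of the extracellular matrix, differed from the mock array by 0.32 and 0.97. Nearest to TP63 were H1-10, a linker histone, at 0.00351, MSRB2 at 0.00561 and the pseudogene FRMD8P1 at 0.00842. Nearest to GRHL3 were SLC19A2, a thiamine transporter, at 0.0191, MARVELD2, the tricellulin gene of epithelial corners, at 0.0192 and OBP2B at 0.0197. With 3 arrays many genes share any given pattern, and the pattern of GRHL3 is one of values within the background.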

How the data were processed

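Total RNA of SAS cells was hybridised to 3 arrays, 2 labelled ARID1A siRNA and 1 labelled mock. The authors' software was Affymetrix Expression Console, per the submitters' processing notes. The sources used here name neither its version nor a genome build. The deposited value table holds log2 expression normalized by the authors. Their deposited per-sample tables hold, per the file headers, the linear intensity, the negative control mean and the ratio to the mock array. The log2 values and the log2 of the intensities differ by at most 5.04e-05.

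Probe sets with 1 gene symbol were averaged per gene, and genes under the 30th percentile of mean log2 (3.52) were left out, leaving 20582 of 29402. limma 3.58.1 in R 4.3.3 was fitted over all of them (lmFit and eBayes, trend on, two-sided), with 1 residual degree of freedom among samples, and p-values were adjusted after Benjamini and Hochberg. Exact ties between the siRNA arrays (9918 genes) would bring the prior spread close to 0, so it was estimated from the 10664 untied genes (prior degrees of freedom 4.9, median prior SD 0.144) and applied to all. It may overstate the spread of tied genes. The method was tested on simulated data. Named genes are every member, ARID1A, in each list the genes at least 1.5-fold from the mock array on both siRNA arrays or otherwise the 3 with the largest mean difference, and the nearest patterns; some genes this rule names are not reported here. The members and lists were chosen with earlier results of these data known. Alternatives covered the filter, scaling, probe sets, the prior, the fold, the source of the values and leaving out each siRNA array.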

Additional observations from a re-analysis of the deposited data

How the results depend on the processing

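No paired analysis was possible because the replicate numbers follow accession order and the mock array has no replicate. The call of 0 members by limma was the same under all 8 alternatives tested, with KLF4 between 0.62 and 0.65 (0.33 and 0.94 on the single siRNA arrays) and its limma adjusted p between 0.868 and 1. TP63 was at 0.16 with array 108 alone and at -0.24 with array 109 alone. Calls over all genes by limma were 0, but 12 without the filter and 1919 with the prior that includes the tied genes, none of them a member; the lowest limma adjusted p of a member there was 0.0845, for GRHL2, whose siRNA values are tied. At 1.2-fold, 1 member (KLF4) was higher on both siRNA arrays instead of 0, and the share of all genes at that fold was not counted. After quantile normalization 6 members were higher and 2 lower on both siRNA arrays instead of 3 and 1, and after centring on the medians 5 were lower, because exact ties were broken. Centring put the median of all genes tested at -0.0151 on each siRNA array, so the 38% of genes with identical values became lower too. Shares of all genes under these scalings were not counted, for the members or for the lists. The median of the members was 0, and 0.0299 after quantile normalization. Without 1 siRNA array it ranged from 0 to 0.0299, a value with no test.

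List medians also moved, all by under 0.07. Without the filter the other epidermal factors were at 0.0069 and the mesenchymal factors at 0. With quantile normalization the epidermal factors were at 0.0076, p63-linked genes at 0.042, differentiation genes at -0.0087, mesenchymal factors at -0.0794 and factors of other lineages at -0.0035. Centred on the medians, the epidermal factors were at -0.0012, mesenchymal factors at -0.0796, and p63-linked genes, differentiation genes and factors of other lineages at -0.0151 each. With the highest probe set per gene the mesenchymal factors were at -0.0322. SOX2 and GRHL3 are limited by signal under the negative control mean, and all members by 1 mock array.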
